A study of Mus musculus with 5 samples.

Results

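Genes of the spliceosome and of its RNA-binding partners were examined for regions of Pou4f1 signal at their transcript starts in the embryonic mouse retina. The genes were taken by symbol, as the protein-coding genes of GENCODE M21 whose symbols begin with Srsf, Snrp, Hnrnp, Sf3a, Sf3b, Prpf, U2af or Lsm followed by a number. They came to 81 of 21951 coding genes, and a region was assigned to a gene when its midpoint lay within 1 kb of any transcript start of that gene. By this definition 43 of the 81 genes had a region, Srsf11 had 2, and the resulting 44 regions are described here out of 8038 in the table. The name fits the members as far as symbols go, with exceptions among the LSm genes. Lsm1, Lsm14a and Lsm14b act on messenger RNA in the cytoplasm, and Lsm10 and Lsm11 belong to the U7 particle, which processes histone messenger RNA. Lsm12 was grouped with these 5 genes.

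In CUT&Tag a transposase is tethered to an antibody, and sequencing adaptors enter the DNA beside the bound protein. Wild-type embryonic retinas (E16.5) were pooled in groups of 4 and dissociated, and libraries were made with rabbit anti-Pou4f1 (n = 2) or rabbit IgG (n = 2). The labels give no other treatment or allele. One IgG column is named IgG. The other, named as a negative, was counted as the second IgG library, since no control but IgG is described, and it is called the negative control here. The H3K9AC library of the study was not analysed here. Whole retina holds several cell types, of which retinal ganglion cells are the ones known to make Pou4f1, so a signal shared by more cells and a stronger signal in fewer cells cannot be told apart.

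Introns are removed by the spliceosome, which is built from small nuclear ribonucleoproteins. The U1 particle marks the 5′ splice site, the U2 particle with its SF3A and SF3B proteins takes the branch point after U2AF has bound the 3′ splice site, and the U4/U6.U5 tri-snRNP then joins. SR proteins mostly favour the use of nearby exons, and many heterogeneous nuclear ribonucleoproteins (hnRNPs) coat the transcript and oppose them. Pou4f1 is a POU-homeodomain transcription factor of retinal ganglion cells and sensory neurons, and it recognises an AT-rich element.

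Sequences that carry what was found at these starts are given first. The first set comes from hnRNP genes with a Pou4f1 region, whose upstream DNA holds several copies of the CCAAT box, the element bound by the factor NF-Y. The bases run 5′ to 3′ on the strand of the gene, upstream of the RefSeq start (GRCm38.p6, the mm10 assembly) and without exon sequence, and capitals mark CCAAT on either strand.
Hnrnpa1, chr15:103240147-103240396, plus strand: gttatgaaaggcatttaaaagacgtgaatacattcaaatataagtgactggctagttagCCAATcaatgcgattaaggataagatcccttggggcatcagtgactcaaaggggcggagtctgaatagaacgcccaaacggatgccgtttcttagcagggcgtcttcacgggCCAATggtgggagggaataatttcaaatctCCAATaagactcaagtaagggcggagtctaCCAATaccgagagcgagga
Hnrnpc, chr14:52104029-52104271, minus strand: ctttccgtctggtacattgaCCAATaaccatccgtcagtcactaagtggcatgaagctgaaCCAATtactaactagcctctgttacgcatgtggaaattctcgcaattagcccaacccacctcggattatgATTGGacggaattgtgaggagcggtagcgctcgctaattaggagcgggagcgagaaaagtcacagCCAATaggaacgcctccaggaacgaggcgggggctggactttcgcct
Hnrnpr, chr4:136310692-136310941, plus strand: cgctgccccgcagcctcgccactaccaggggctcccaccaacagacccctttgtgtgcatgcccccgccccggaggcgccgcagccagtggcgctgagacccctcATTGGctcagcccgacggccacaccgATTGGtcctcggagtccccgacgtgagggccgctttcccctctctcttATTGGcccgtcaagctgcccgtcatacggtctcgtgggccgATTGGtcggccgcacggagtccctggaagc
Hnrnpul1, chr7:25754760-25755009, minus strand: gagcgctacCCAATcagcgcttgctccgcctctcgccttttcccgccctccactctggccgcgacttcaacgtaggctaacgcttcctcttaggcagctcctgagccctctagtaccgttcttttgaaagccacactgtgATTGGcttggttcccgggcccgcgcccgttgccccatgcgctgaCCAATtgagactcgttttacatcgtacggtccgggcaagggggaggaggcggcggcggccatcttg

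The second set comes from genes of the U2 particle that had no Pou4f1 region at a start, Sf3b2 and Sf3b6, which both belong to the SF3B complex. Capitals mark CCGGAAG, the element of ETS factors, on either strand.
Sf3b2, chr19:5295456-5295705, minus strand: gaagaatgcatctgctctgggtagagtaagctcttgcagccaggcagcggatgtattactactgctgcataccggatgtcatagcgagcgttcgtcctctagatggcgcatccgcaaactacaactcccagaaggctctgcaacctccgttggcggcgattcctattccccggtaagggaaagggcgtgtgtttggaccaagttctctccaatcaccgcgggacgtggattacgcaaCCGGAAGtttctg
Sf3b6, chr12:4817358-4817543, plus strand: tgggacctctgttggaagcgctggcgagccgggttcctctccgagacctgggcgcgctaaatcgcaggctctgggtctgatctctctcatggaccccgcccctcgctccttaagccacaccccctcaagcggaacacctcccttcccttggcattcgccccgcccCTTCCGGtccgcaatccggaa

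The third is the only match of the POU consensus in the 44 regions. It lies in the region at Lsm6, a subunit of the ring that binds U6 RNA, in an intron 583 bp downstream of the nearest start, and capitals mark the match.
Lsm6, chr8:78820508-78820597, minus strand: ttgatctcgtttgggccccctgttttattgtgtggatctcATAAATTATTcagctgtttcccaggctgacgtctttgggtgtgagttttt

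Splicing genes carried a Pou4f1 region at a start more often than coding genes at large. A region was present at 43 of 81 of them, or 53.1% (95% exact binomial interval 41.7 to 64.3%, counting error only), against 24.9% of all coding genes and 24.8% of the coding genes that are not members. Base composition moved with these shares. Of the splicing genes, 72.8% had over 55% GC in the 1 kb around their 5′-most start, against 49.0% of coding genes. Among genes over 55% GC, a region was present at 33 of 59 splicing genes (55.9%) and at 41.2% of coding genes. In this GC range the difference lay with the hnRNP genes. Above 55% GC a region was present at 15 of 16 hnRNP genes (93.8%) and at 18 of the 43 other splicing genes (41.9%), close to the share of coding genes. Without the GC limit it was present at 26 of the 61 splicing genes other than hnRNP (42.6%). At or under 55% GC at the 5′-most start, a region was present at 10 of 22 splicing genes (45.5%) and at 9.27% of coding genes. Most of these 10 were not hnRNP genes, so in this GC range the difference did not lie with that group. A region could lie at any start, so its own GC could differ. The region was over 55% GC at Lsm14a (64.7%), Hnrnpf (70.5%), Snrpa1 (56.6%), Prpf4 and Prpf8. It was under 55% GC at Hnrnpa1, Lsm6, Lsm10, Snrpd2 and Snrpg. Genes were not matched for GC within this range, so these shares do not compare starts of like GC. No test of these differences was made, because genes are not replicates.

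Splicing genes also began close to other genes more often, and such starts carried regions more often. Another coding start lay within 1 kb of a start in 28 of 81 splicing genes (34.6%) and in 14.6% of coding genes. With such a neighbour, 17 of 28 splicing genes (60.7%) and 44.4% of coding genes had a region. Without one, 26 of 53 splicing genes (49.1%) and 21.6% of coding genes had a region. The part of GC content and of neighbours in the share of splicing genes with a region was not tested beyond these splits.

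The members just inside and just outside the distance limit were far apart. The most distant midpoint counted was that of U2af2, at -955 bp (negative values are upstream), and the nearest one not counted lay at -3161 bp from U2af1l4, so that a limit of 2 kb gave the same 43 genes. With a limit of 500 bp, 40 genes (49.4%) had a region, and 23.2% of coding genes did.

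The groups of splicing genes differed widely in how many members carried a region. The hnRNP genes led with 17 of 20 (85.0%, interval 62.1 to 96.8%). The 3 without a region were Hnrnpd, Hnrnpm and Hnrnph2, of which Hnrnpd had the most GC-rich start, at 73.8%. Of the Sm-like LSm proteins that ring U6 RNA, 5 of 7 had a region (Lsm3, Lsm4, Lsm6, Lsm7 and Lsm8), and Lsm2 and Lsm5 did not. The other LSm genes had regions at 5 of 6 (Lsm1, Lsm10, Lsm11, Lsm14a and Lsm14b), with Lsm12 the exception.

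**Figure D1:**
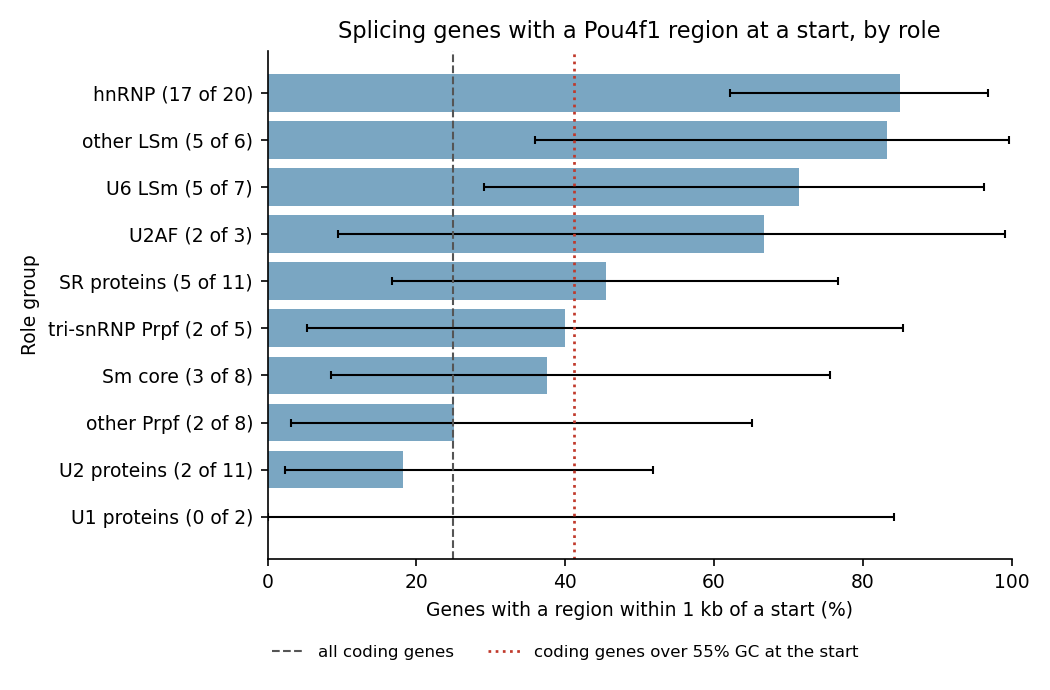
Bars show the percentage of genes in each role group with a Pou4f1 region within 1 kb of a start, with the number of genes in brackets, and error bars are 95% exact binomial intervals. The dashed line marks all coding genes (24.9%) and the dotted line coding genes over 55% GC (41.2%). The hnRNP bar reaches 85.0% and the U2 bar 18.2%.

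Among the SR proteins, 5 of 11 had a region, namely Srsf1, Srsf2, Srsf5, Srsf7 and Srsf11, although all 11 starts exceeded 55% GC. Srsf3, Srsf4, Srsf6, Srsf9, Srsf10 and Srsf12 had none. Of the U2AF genes, which encode the factor that binds the 3′ splice site, U2af1 and U2af2 had a region and U2af1l4 did not.

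Counts for the particle proteins were small. The Sm core, the ring around the U1, U2, U4 and U5 RNAs, had regions at Snrpg, Snrpd2 and Snrpd3, or 3 of 8 genes (interval 8.52 to 75.5%), and none at Snrpb, Snrpn, Snrpd1, Snrpe or Snrpf. Snrpa and Snrpc, the U1 genes that the symbols take in, lacked one, whereas Snrnp70, which encodes the U1-70K protein and falls outside them, had a region with 246 and 273 in Pou4f1 and 12.6 and 38.8 in IgG (adjusted p = 0.0301 by limma). Of the U2 proteins, 2 of 11 had a region (Snrpa1 and Sf3a2, 18.2%, interval 2.28 to 51.8%), and Snrpb2, Sf3a1, Sf3a3, Sf3b1, Sf3b2, Sf3b3, Sf3b4, Sf3b5 and Sf3b6 had none. Of the 11 U2 starts, 8 exceeded 55% GC, and 1 of those 8 had a region.

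The Prpf genes divided in the same uneven way. Prpf4 and Prpf8 of the tri-snRNP had regions, and Prpf3, Prpf6 and Prpf31 had none. Of the remaining Prpf genes, 2 of 8 had a region, Prpf38b among them, and Prpf18, Prpf19, Prpf38a, Prpf39, Prpf4b and Prpf40b had none. The differences between role groups were not tested, and the intervals of all groups apart from the hnRNP genes were wide.

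Other families of housekeeping genes give a scale for these shares. Of a list of 80 further spliceosome genes without these prefixes, 26 had a region (32.5%), and 0 of the 26 regions was shared with a member. Cytosolic ribosomal protein genes had regions at 34 of 78 (43.6%) and proteasome subunit genes at 11 of 39 (28.2%).

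All 44 regions gave more signal with anti-Pou4f1 than with IgG in these libraries. The signal is a mean coverage-like value per region as deposited. Regions were called from the Pou4f1 signal with IgG as the control, so part of any excess over IgG was built in. The limma p-values in this report test that same contrast again, so they are not independent of how the regions were picked. It ranged from 77.5 to 476 in Pou4f1 replicate 1 (median 192) and from 41.2 to 334 in replicate 2 (median 121). In the library named IgG it ranged from 0 to 57.5 (median 2.92) and in the negative control from 0 to 62.3 (median 10.1). Both Pou4f1 values exceeded both IgG values at 44 of 44 regions, against 96.5% of all regions and 99.0% of the other regions at coding starts, so this separation was close to that of the table as a whole.

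With limma on log2(signal + 1), 28 of the 44 regions (63.6%) were higher in Pou4f1 at a Benjamini-Hochberg adjusted p under 0.05, against 64.8% of all regions and 62.0% of the other regions at coding starts. The share was near the background. By the same test 0 of 44 were lower, against 0.224% of all regions, and 32 of 44 (72.7%) had an unadjusted p under 0.05, against 76.3% of all regions and 74.5% of the other regions at coding starts. The median log2 difference was 5.02 over the 44 regions and 5.22 over all regions. The calls rested on the scale given to IgG, since 6 regions were called when the columns were scaled to equal totals, which moved the median of all regions to 2.74 and put 12 of the 44 differences below 0. Without Pou4f1 replicate 1 there were 9 calls, without replicate 2 there were 10, and without either IgG column there were 43, with the spread then taken from fewer libraries.

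IgG signal at these regions was low and often 0. Multiplied by the length of the region, the values were whole multiples of a step fixed for each library, and the commonest low value in both IgG libraries was 160 steps. The median of the 44 regions was 37.5 steps in the library named IgG and 147.5 in the negative control, against 4523.5 and 2481.5 in the Pou4f1 replicates. Of the 44 regions, 14 were above 0 in both IgG libraries, and 11 of these were called (78.6%, and 78.6% of such regions at other coding starts). Another 24 were listed at 0 in one IgG library, of which 11 were called (45.8%, against 32.7%), and all 6 listed at 0 in both were called (100%, against 99.7%). At members and at other coding starts alike, the share called was thus lowest where the IgG libraries were split between 0 and a value above 0. The negative control had a median of 23.7 over the 16 regions not called and of 8.28 over the 28 called.

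**Figure D2:**
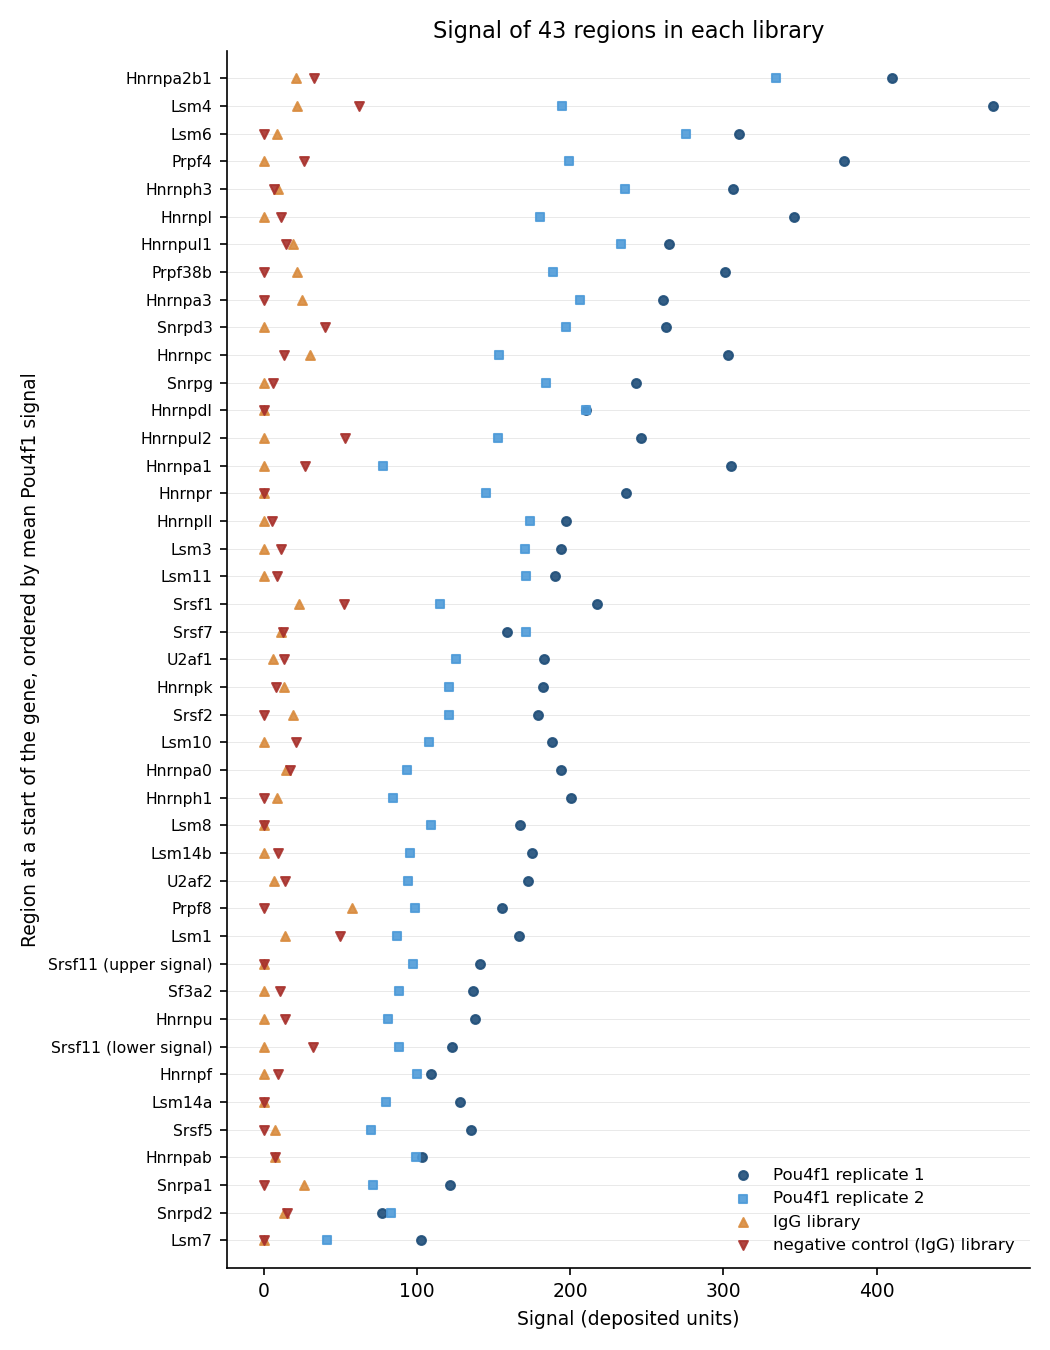
Each row is one of 43 of the 44 regions, ordered by mean Pou4f1 signal, and the 4 symbols give the deposited signal in the 2 Pou4f1 and 2 IgG libraries (linear axis). The Pou4f1 symbols lie to the right of the IgG symbols in every row, and replicate 1 lies to the right of replicate 2 in 40 rows.

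Several settings bear on the single genes below. With column totals the log2 difference fell below 0 at Hnrnpa0, Hnrnpa2b1, Hnrnpab, Hnrnpc, Hnrnpk, Hnrnpul1, Lsm1, Lsm4, Snrpd2, Srsf1, Srsf7 and U2af2. Leaving out either Pou4f1 replicate ended the calls at Hnrnpa2b1, Hnrnpc, Hnrnpk, Lsm6, Snrpd2, Srsf5, U2af1 and U2af2. IgG taken as 4 times shallower ended these and those at Hnrnpab and Srsf7.

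In strength the regions resembled other regions at coding starts. The mean Pou4f1 signal had a median of 160 at splicing genes, with quartiles of 125 and 229, and of 158 at the other 4904 regions at coding starts, with quartiles of 115 and 227. None of the 44 stood far above the rest, as the highest mean was 372 at Hnrnpa2b1 and the highest at another coding start was 2129.

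The hnRNP genes gave both strong and weak regions. Hnrnpa2b1 encodes an hnRNP that binds transported messenger RNA, and its region gave 409.7 and 334 with anti-Pou4f1 and 21.2 and 32.8 in IgG. Its Pou4f1 values were the most intense on average of the 44 and lay above both IgG values (log2 difference 3.76, SE 0.46, adjusted p = 0.0099 by limma), although column totals turned the difference to -0.23. The region lies at chr6:51469617-51470481 (mm10), with 278 bp in exons of Hnrnpa2b1 and 587 bp upstream of the gene, and it covers the start of Cbx3, which runs the other way and encodes heterochromatin protein 1 gamma.

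Hnrnpa1, a close relative that represses exon inclusion, also shares its region (chr15:103239298-103240694) with a heterochromatin protein 1 gene, Cbx5, on the opposite strand. Its replicates disagreed most, with 305 in replicate 1 and 77.7 in replicate 2 against 0 and 26.9 in IgG. All the same the Pou4f1 values stayed above both IgG values, and the difference missed the threshold (log2 difference 4.88, SE 2.08, adjusted p = 0.105 by limma). The size rested on the IgG column used, with 2.48 without that named IgG and 7.28 without the negative control.

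Hnrnpc, whose product packages nascent transcripts and binds uridine tracts, gave 303 and 153 in Pou4f1 and 30.1 and 12.9 in IgG (log2 difference 3.38, SE 0.71, adjusted p = 0.0308 by limma). Hnrnpk, which binds cytosine-rich RNA, gave 182 and 121 against 13.4 and 7.94 (log2 difference 3.72, SE 0.52, adjusted p = 0.0132 by limma). Both passed the threshold with every library above 0. Hnrnpu, which binds nuclear RNA and chromatin, gave 138 and 80.8 against 0 and 13.8, and the groups did not overlap although the adjusted p was 0.0686 by limma.

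Other hnRNP regions had no IgG signal at all. Hnrnpdl gave 210.2 and 210.6 in the Pou4f1 replicates, the closest pair of the 44, and Hnrnpr gave 236 and 145. Neither had any IgG signal listed above 0. Their adjusted p values by limma were 0.00222 and 0.00231, and no fold is given against 0. Hnrnpab was among the 5 weakest at 103 and 99.2, with 7.52 and 7.23 in IgG. Its libraries of each kind lay close together, and the difference passed the threshold (log2 difference 3.61, SE 0.38, adjusted p = 0.00694 by limma).

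The SR genes lay in the lower part of the range, with a median mean signal of 135. Srsf1, the founding SR protein, gave 217 and 115 in Pou4f1 and 23.3 and 52.6 in IgG, so its difference was the second smallest of the 44 and did not pass the threshold (log2 difference 2.14, SE 0.69, adjusted p = 0.0637 by limma). Srsf2, an SR protein of the nuclear speckle, gave 179 and 121 against 19.0 and 0, and it too missed the threshold (adjusted p = 0.0735 by limma). Srsf7, another SR protein, was one of the 3 regions at which replicate 2 was the higher, at 171 against 159 in replicate 1, and with 11.0 and 12.4 in IgG it passed (log2 difference 3.71, SE 0.38, adjusted p = 0.00677 by limma).

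Srsf5 and Srsf11 completed the SR group. Srsf5 gave 136 and 70.0 in Pou4f1 against 7.55 and 0 in IgG and passed narrowly (adjusted p = 0.0456 by limma). Srsf11 was the one gene with 2 regions. That at the start it shares with Lrrc40 on the opposite strand (chr3:158036173-158036960) gave 141 and 97.4 in Pou4f1, with 0 for each IgG library (adjusted p = 0.00234 by limma). That at a start further into the gene (chr3:158031225-158032094) gave 123 and 88.6 against 0 and 32.2 and did not pass (adjusted p = 0.133 by limma). The Pou4f1 values of the pair overlapped, and the difference in call went with the IgG values.

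The U2AF genes were alike in signal. U2af1, the small subunit that reads the AG at the 3′ splice site, gave 183 and 125 in Pou4f1 and 5.85 and 13.2 in IgG (log2 difference 3.95, SE 0.60, adjusted p = 0.016 by limma). U2af2, the large subunit that binds the polypyrimidine tract, gave 173 and 94.4 against 6.66 and 13.8 (log2 difference 3.59, SE 0.63, adjusted p = 0.0219 by limma). Both were higher in Pou4f1 in each library, although the U2af2 region lies wholly upstream of the gene.

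LSm genes held some of the strongest regions and the weakest. Lsm4 (chr8:70672876-70673709) gave 476 in replicate 1, the highest value of any of the 44 regions in one library, and 195 in replicate 2, against 21.5 and 62.3 in IgG. The groups did not overlap, and the difference narrowly missed the threshold (log2 difference 3.02, SE 0.86, adjusted p = 0.0528 by limma). Lsm6 gave 310.0 and 276 against 8.50 and 0, and it passed (log2 difference 6.57, SE 1.34, adjusted p = 0.0294 by limma). The call was lost with a pseudocount of 0.1 (adjusted p = 0.102 by limma) and with IgG taken as 2 times shallower (adjusted p = 0.0784 by limma), and the difference was 8.20 or 4.95 with the column named IgG or the negative control left out. Lsm7 (chr10:80854750-80855960) was at the other end with 103 and 41.2, its second replicate being the lowest Pou4f1 value of the 44, with 0 in each IgG library (adjusted p = 0.00706 by limma). Lsm14a, a P-body protein, had 128 and 79.5 in Pou4f1 and likewise 0 in IgG (adjusted p = 0.00279 by limma).

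Among the Prpf genes, Prpf4, which sits on U4/U6, gave 379 and 199 against 0 and 26.1, and the difference did not pass (log2 difference 5.73, SE 1.95, adjusted p = 0.0705 by limma). It was 3.35 without the column named IgG and 8.11 without the negative control, each time past the threshold. Prpf8, the large scaffold of the catalytic centre, gave 156 and 98.9 against 57.5 and 0. Its value in the library named IgG was the highest of the 44 in that library, and its adjusted p was 0.186 by limma, also the highest.

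The few particle proteins with a region were spread over the range. Snrpd3 of the Sm ring gave 263 and 197 against 0 and 39.7, and Snrpg gave 243 and 184 against 0 and 6.11. Snrpd2 lay near the bottom, with 77.5 and 82.9 against 13.1 and 15.3, and replicate 2 was the higher there. Its libraries lay close together within each group, and it passed (log2 difference 2.42, SE 0.38, adjusted p = 0.0178 by limma). Snrpa1 of the U2 particle gave 121 and 71.2 against 26.3 and 0 and did not pass (adjusted p = 0.124 by limma).

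Replicate 1 exceeded replicate 2 at nearly all of these starts. It did so at 41 of 44 regions (93.2%), against 84.1% of the other regions at coding starts, and the exceptions were Srsf7, Snrpd2 and Hnrnpdl. The ratio of replicate 2 to replicate 1 had a median of 0.650 with quartiles of 0.541 and 0.814, against a median of 0.698 at other coding starts. It was 1.14 at the 3080 regions away from coding starts, so that splicing genes followed starts in general in this respect. Over 2-fold differences in favour of replicate 1 were found at 5 regions (11.4%), against 19.6% of the other regions at coding starts, and in favour of replicate 2 at 0, against 0.347%. The lowest ratios were 0.254 at Hnrnpa1, 0.401 at Lsm7 and 0.409 at Lsm4, and the highest were 1.08 at Srsf7 and 1.07 at Snrpd2, followed by Hnrnpdl.

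**Figure D3:**
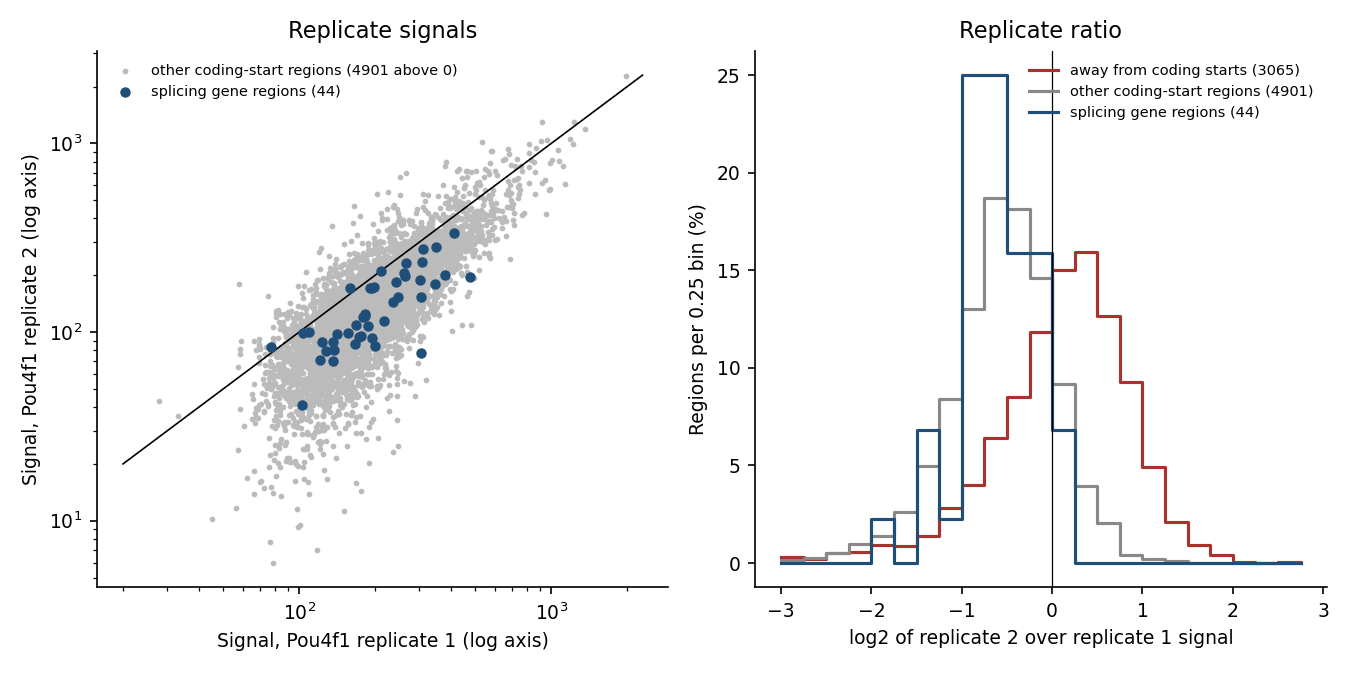
Left, signal in Pou4f1 replicate 2 against replicate 1 (log axes) for the 44 splicing gene regions and the other regions at coding starts, with the line of equality. Right, percentage of regions by log2 ratio of replicate 2 to replicate 1 in bins of 0.25. Splicing gene regions peak below 0 (median ratio 0.650) as other coding starts do, while regions away from starts peak above 0 (median ratio 1.14).

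The regions lay about the starts. A start of the gene lay inside the region at 42 of 44, and the midpoint was a median of 46 bp upstream, against 11 bp downstream at other coding starts. These medians were not measured alike. At members the distance was to a start of the member, even where a neighbouring gene began closer. At other regions it was to the nearest start of any coding gene. The exceptions were Hnrnpul1 and U2af2, whose regions ended about 32 and 39 bp upstream of the start. The length had a median of 1073 bp, against 1022 bp at other coding starts, from 279 bp at Lsm8 to 2033 bp at Hnrnph3, and the GC content had medians of 62.1% and 62.9%.

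Shared starts were frequent. At 17 of the 44 regions (38.6%) another coding gene began within 1 kb of the midpoint, on the opposite strand in all 17, against 13.3% of the other regions at coding starts. Their partners included Cbx3 at Hnrnpa2b1, Cbx5 at Hnrnpa1, Cdc26 at Prpf4, Gucd1 at Snrpd3, Xpc at Lsm3, Mfsd11 at Srsf2 and Sppl2b at Lsm7. Signal at such a region cannot be assigned to one gene of the pair. The 38.6% and 13.3% are in unlike units, since a list of genes can take in a shared region through either gene. Counted by gene, another coding start lay within 1 kb of a start in 17 of the 43 splicing genes with a region. It did so in 1426 of the 5470 coding genes with a region. Over the 27 regions with no other coding start, the median mean signal was 148 and the median replicate ratio 0.622, against 156 and 0.699 at comparable other starts.

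**Figure D4:**
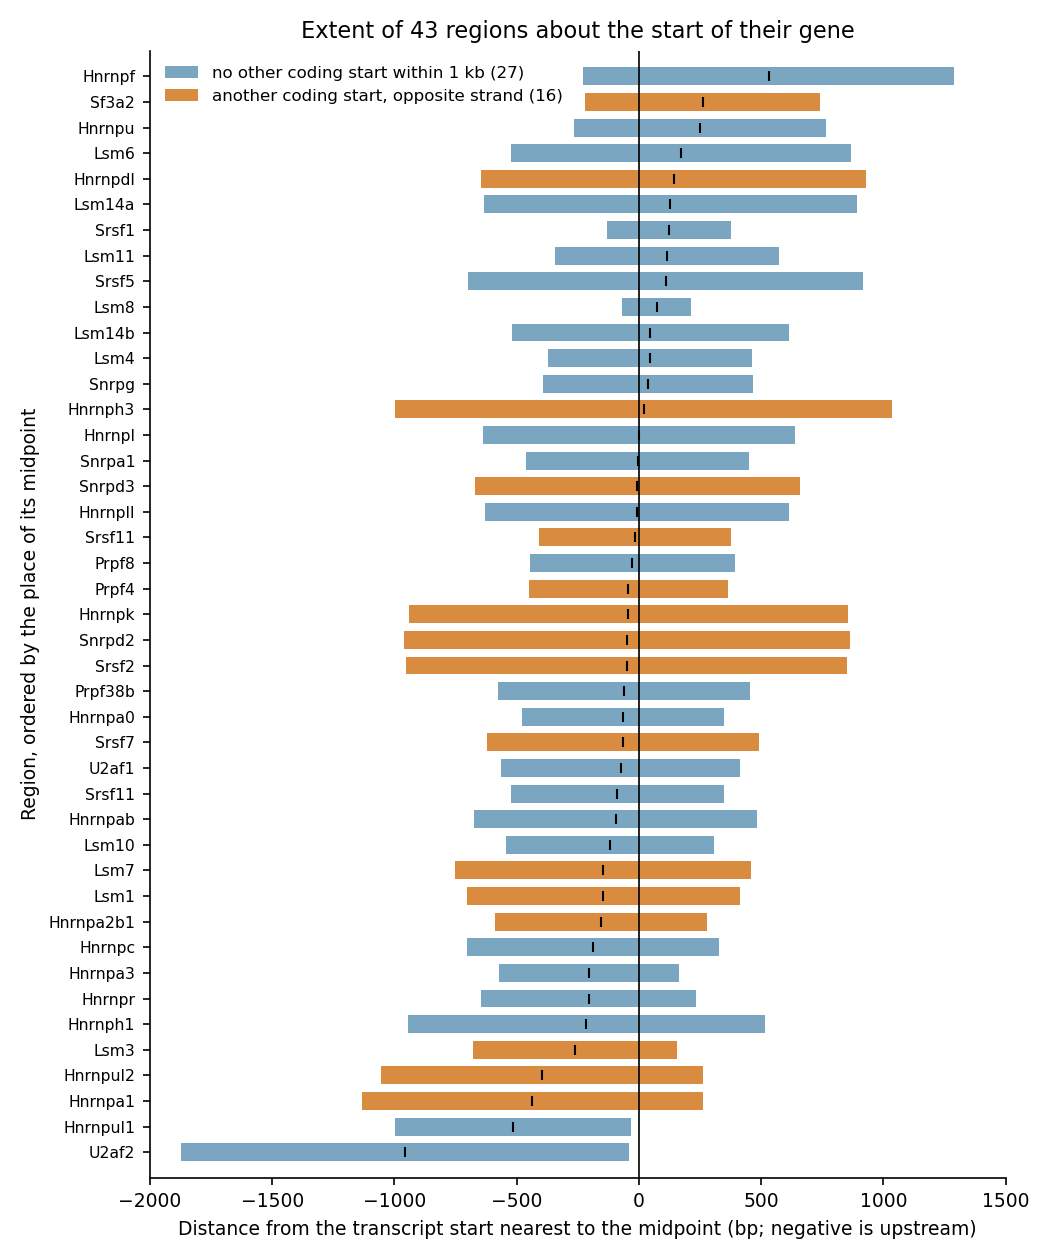
Bars span 43 of the 44 regions relative to the transcript start nearest to its midpoint (vertical line at 0, negative values upstream), and ticks mark midpoints. The 16 regions near a start of another coding gene on the opposite strand are in orange and the other 27 in blue, and the bars of 41 regions cover the start.

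Away from their starts the splicing genes held no region in their bodies. The same count is not given for all coding genes, so this absence is not read as particular to splicing genes. Within 10 kb of a member but over 1 kb from its starts there were 15 regions, and 0 of them lay inside a gene of the list. Of the 15, 12 lay at the start of another coding gene. The other 3 lay near Srsf4, at -5480 bp, near Lsm7, 4409 bp downstream of the start and beyond the gene, and near Lsm11, 23297 bp downstream and beyond the gene. That near Srsf4, which has no region at its start, gave 119 and 40.8 in Pou4f1 and 24.9 and 0 in IgG and did not pass (adjusted p = 0.152 by limma). For scale, 6 regions lay within 10 kb of Pou4f1 itself, 5 of them called, in a table in which 64.8% of regions were called.

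The POU consensus was rare in the regions of splicing genes. It has 10 positions, 2 of them free, and its match in the Lsm6 sequence is given above. A match on either strand was present in 1 of 44 regions (2.27%), in 2.65% of the other regions at coding starts and in 27.9% of regions away from coding starts. In this the regions of splicing genes resembled those at other starts. Median GC was 62.1% in the 44 regions, 62.9% at other coding starts and 49.3% away from them. The part of GC in the share holding this AT-rich consensus was not tested.

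Short promoter elements were more frequent. CCAAT was present in 36 of 44 regions (81.8%) and in 67.6% of the other regions at coding starts, and TATAAA in 20.5% and 13.7%. The ETS element CCGGAAG was present in 34.1% and 28.3% and the YY1 element AAGATGGC in 11.4% and 10.2%. The NRF1 consensus of 10 positions was present in 38.6% and 19.3%. All were sought on both strands, and a match says nothing of binding. In the central 200 bp of the regions the shares for NRF1 were 15.9% and 6.59% and for CCAAT 29.5% and 23.3%. Over whole regions away from coding starts, CCAAT was present in 66.9% and TATAAA in 34.9%. There the share was 6.98% for CCGGAAG, 5.68% for AAGATGGC and 2.05% for the NRF1 consensus.

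Promoter windows from RefSeq, 250 bases before to 50 after a start, were at hand for 69 of the 81 genes, including genes without a region. Over all 20150 windows of coding genes and the 92 of splicing genes, CCAAT was held by 37.8% and 46.7%, CCGGAAG by 11.9% and 28.3%, the NRF1 consensus by 6.60% and 21.7%, TATAAA by 12.1% and 7.61%, AAGATGGC by 3.11% and 5.43% and the POU consensus by 1.34% and 1.09%. Repeated CCAAT was found mostly in hnRNP genes. It occurred 3 or more times in 7 of 18 hnRNP genes (38.9%), namely Hnrnpa1, Hnrnpab, Hnrnpc, Hnrnph2, Hnrnpl, Hnrnpr and Hnrnpul1, against 2 of 51 other splicing genes (3.92%) and 4.4% of coding genes. It occurred at least 4 times in 5 of them (27.8%), against 1.39% of coding genes. The printed sequences of Hnrnpa1, Hnrnpc and Hnrnpr hold 4 copies each, and that of Hnrnpul1 holds 3, with the rest of its window left out. Of the 7, all but Hnrnph2 had a Pou4f1 region, which is near the 85.0% of hnRNP genes as a whole.

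**Figure D5:**
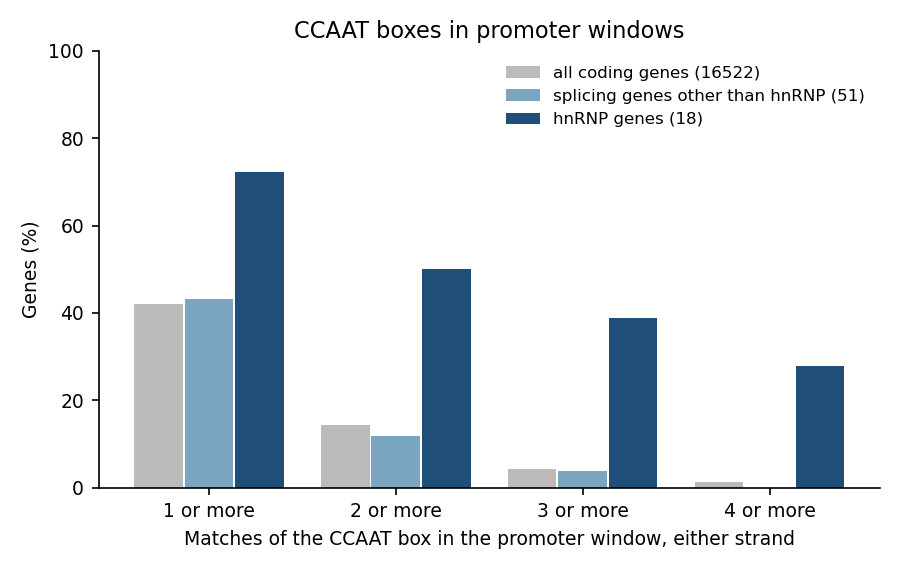
Bars give the percentage of genes whose RefSeq promoter window holds at least 1, 2, 3 or 4 matches of CCAAT on either strand, for all coding genes, splicing genes other than hnRNP and hnRNP genes. At 3 or more matches the bars stand at 4.4%, 3.92% and 38.9%.

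The ETS element CCGGAAG was found in other genes. It was present in 7 of the 9 U2 protein genes with a window (Sf3a1, Sf3a2, Sf3a3, Sf3b2, Sf3b3, Sf3b6 and Snrpb2), in 2 of 18 hnRNP genes (Hnrnpd and Hnrnpf) and in 13.4% of coding genes. Of these 7 U2 genes, Sf3a2 alone had a Pou4f1 region. Over all members, the ETS element was present in the windows of 6 of 37 genes with a region (16.2%) and of 15 of 32 without one (46.9%), while CCAAT was present in 22 of 37 (59.5%) and 13 of 32 (40.6%). The same split is not given for all coding genes, so these shares have no background, and they mix the role groups. Groups and elements were set side by side after their values were seen, so these counts are descriptions and were not tested.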

How the data were processed

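CUT&Tag libraries of pooled wild-type E16.5 retinas (4 per pool) were made with anti-Pou4f1 (n = 2) and IgG (n = 2). The authors trimmed and masked the reads and mapped them to mm10 with Bowtie2 2.4.5. They called regions with SEACR, with IgG as the control. They deposited 1 signal value per region and library for 8038 regions, of which 8028 lie on chromosomes 1 to 19 and X. The sources used here do not give the averaging, the scaling or the depth. The step of the values (whole multiples for 100% of values, tolerance 0.05) is the smallest unit they resolve. The commonest low value in both IgG libraries was 160 steps, so the step alone does not give the precision.

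Values were compared without scaling by limma 3.58.1 (R 4.3.3) on log2(signal + 1), Pou4f1 against IgG, with Benjamini-Hochberg adjustment over all 8038 regions. A log2 difference on this scale understates changes at low signal. With 2 libraries a group an exact two-sided permutation test cannot give a p below 0.333. Whether the 2 libraries of a group came from separate pools is not stated in the labels, so p-values measure the spread between these libraries.

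Genes were those of GENCODE M21, and region sequences were read from GRCm38.p6. Motifs were sought on both strands. Intervals are exact binomial (Clopper-Pearson, 95%). Genes named in the text were a list fixed by role, the 5 highest and 5 lowest mean Pou4f1 signals, the 3 highest and 3 lowest replicate ratios, genes with 2 or more regions, all genes without a region, and partners or motif holders named after their values were seen. One result that this rule would name is not reported here. Members and lists were chosen with earlier results of these data known. Python 3.11.15 with matplotlib 3.10.9, scipy 1.17.1, pandas 2.3.3 and numpy 2.4.6 was used.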

Additional observations from a re-analysis of the deposited data

How the results depend on the processing

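The share of splicing genes with a region was between 48.1% and 55.9% under the alternatives for distance, start and transcript type and among genes over 55% GC, and was 45.5% at or under 55% GC. It was 49.1% without genes that have a coding neighbour, a choice made after seeing the data. It was 24.7% when only regions at or above the median signal counted. For all coding genes the share was 23.2% within 500 bp, 25.6% within 2 kb, 22.2% at the 5′-most start, 24.3% with protein_coding transcripts, 41.2% over 55% GC, 21.6% without a coding neighbour and 11.1% at or above the median signal.

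Of the 44 regions, 28 were called higher in Pou4f1. The count was 17 with a pseudocount of 0.1, 43 with 10, 13 and 7 with IgG taken as 2 and 4 times shallower, 6 with column totals and 9 to 43 with one library left out. Leaving out a library leaves its group with 1, assumed to vary like the other group. In all regions the calls were 64.8% higher and 0.224% lower, and with column totals 22.7% and 2.04%. The median log2 difference of the 44 was 6.72 and 3.16 with pseudocounts of 0.1 and 10 and 2.58 with column totals, and its distance from the median of all regions was -0.20 in the reported fit and -0.15 with column totals. Column totals turned the log2 difference at Hnrnpa2b1 (-0.23), Lsm4 (-0.99), Hnrnpc (-0.59), Srsf1 (-1.86), Srsf7 (-0.22), Hnrnpk (-0.20), U2af2 (-0.31), Hnrnpab (-0.27) and Snrpd2 (-1.53), which follows from scaling IgG columns with low totals up to those of Pou4f1. No paired analysis was possible because the IgG columns carry no replicate number. Most IgG values at these regions lay near or below the commonest low value, which limits every difference given.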
